A study of Mus musculus with 8 samples.

Results

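Polyamine metabolism is described here through 9 genes, *Odc1*, *Amd1*, *Srm*, *Sms*, *Smox*, *Sat1*, *Oaz1*, *Oaz2* and *Azin1*, chosen by name out of the 32390 rows of a gene count table of mouse gastrocnemius, a calf muscle made up largely of fast fibers. Each name stood in 1 row, and all 9 rows had enough counts to be tested. *Odc1*, the gene of ornithine decarboxylase, fell to 24.3% of its control level in NOX4-deficient muscle and was the only one of the 9 that passed both thresholds of the test. *Oaz2*, for antizyme 2, was 1.4-fold higher with an adjusted p-value under 0.05, and *Amd1*, for S-adenosylmethionine decarboxylase, was 1.35-fold higher with an adjusted p-value just above it. For the other 6 no difference passed the test, with edgeR adjusted p-values from 0.207 to 0.827.

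The table holds bulk RNA-seq of whole gastrocnemius from 4 control mice (Nox4 fl/fl) and 4 NOX4-deficient mice (MckCre:Nox4 fl/fl), all 21 months old, male, on a C57BL/6 background and fed standard chow, with 1 batch given for all 8 samples. Both groups carry the floxed *Nox4* alleles, and the Cre, driven by the muscle creatine kinase promoter, is named for the NOX4-deficient group alone, so an effect of Cre itself cannot be told apart from that of the deletion. The deletion is thus aimed at muscle fibers, with some Cre activity in the heart, and the alleles stay intact in the other cells of the muscle. The comparison asks which transcripts differ in aged muscle with a deletion aimed at the gene of the hydrogen peroxide-producing enzyme NOX4.

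Polyamines (putrescine, spermidine and spermine) are small positively charged molecules that bind nucleic acids and are needed for growth and for protein synthesis. ODC1 makes putrescine from ornithine, and AMD1 makes the aminopropyl donor that the synthases SRM and SMS add to form spermidine and then spermine. SAT1 acetylates spermidine and spermine for export or oxidation, and SMOX oxidizes spermine back to spermidine and releases hydrogen peroxide. ODC1 is controlled after translation by the antizymes, which bind it, send it to the proteasome without ubiquitin and lower polyamine uptake, and by the antizyme inhibitor AZIN1, an inactive relative of ODC1 that binds antizyme in its place. In skeletal muscle *Odc1*, *Amd1* and *Smox* are known as genes that respond to growth and disuse.

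Antizyme is itself made only when the ribosome shifts by 1 base at the stop codon that ends its first reading frame, and polyamines raise the rate of that shift, which is how the pathway senses its products. The shift site is shown for both antizymes because it is the feature that they share and that transcript counts cannot read. In the 30 bases below, from 1 transcript of each gene in the GENCODE M21 annotation, capitals mark the codon before the stop and the stop codon.
*Oaz1*: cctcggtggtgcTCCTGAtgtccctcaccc
*Oaz2*: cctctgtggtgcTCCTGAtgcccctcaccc
The windows were identical at 28 of the 30 positions, and the capitals were the same in both. The counts give the amount of each transcript and hold no information on how often the shift took place.

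The sequences upstream of *Odc1* and *Amd1*, the genes of the pathway's decarboxylases, are shown because these transcripts had the lowest and one of the highest fold changes of the 9. They are taken from RefSeq on GRCm38.p6 and end before the first annotated start of the gene, and they were used for sequence only, since the counts were made on GRCm39. The *Odc1* sequence lies on the forward strand at chr12:17544623-17544807 and the *Amd1* sequence on the reverse strand at chr10:40302189-40302438, both written 5′ to 3′.
*Odc1*: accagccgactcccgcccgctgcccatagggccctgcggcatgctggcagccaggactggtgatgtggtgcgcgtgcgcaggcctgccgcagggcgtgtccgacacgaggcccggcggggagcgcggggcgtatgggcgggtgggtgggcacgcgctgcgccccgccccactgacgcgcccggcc
*Amd1*: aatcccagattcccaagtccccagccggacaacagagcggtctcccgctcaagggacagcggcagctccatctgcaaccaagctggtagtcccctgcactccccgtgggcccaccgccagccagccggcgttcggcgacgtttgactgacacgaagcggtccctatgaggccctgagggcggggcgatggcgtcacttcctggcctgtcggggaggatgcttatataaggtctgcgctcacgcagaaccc
In windows of 300 bases (250 before and 50 after the start) the E-box CACGTG, the core of the antioxidant response element TGACNNNGC and the TATA box TATAAA were searched on both strands. None of these motifs was found, as the exact letters given, in the windows of *Odc1*, *Amd1*, *Sat1* or *Oaz2*. Other forms of a TATA box, such as tatataag near the end of the *Amd1* sequence, were not searched. *Sms* held 1 E-box, which 7.15% of 32851 RefSeq promoters hold. *Smox* held the antioxidant response core, as did *Oaz1* (12.4% of promoters). *Oaz1* also held the letters TATAAA (13.6% of promoters), beginning at position -3 and running across the annotated start. Of the 9 genes 7 had a promoter in the table used, and *Srm* and *Azin1* had none. The bases G and C made up 78.0% of the *Odc1* window and 63.0% of the *Amd1* window.

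The libraries held 16350548 to 19804661 counts on genes, of which the 9 genes took 0.258% to 0.294% in control and 0.261% to 0.306% in NOX4-deficient muscle. Counts per gene and library ran from 69 for *Srm* to 32396 for *Amd1*. For the deleted gene *Nox4*, replicates 1 to 4 gave 85, 48, 35 and 70 counts in control mice against 29, 43, 42 and 37 in NOX4-deficient mice, and the groups overlapped (log2 fold change -0.65, SE 0.29, edgeR adjusted p = 0.207). Its counts cover the whole gene in whole muscle, and the deleted part cannot be read from them. Fast-fiber markers, among them *Myh4* and *Actn3*, summed to 123862 to 148698 CPM (counts scaled to library size) in control and 131899 to 155402 CPM in NOX4-deficient libraries, so that the markers of the labelled muscle were abundant. Of 12 lists of marker genes, 9 had summed levels that overlapped between genotypes, and the other 3 are given with *Odc1*. In bulk tissue, fewer cells of a type and less RNA per cell cannot be told apart.

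Ornithine decarboxylase, the first and rate-limiting step of the pathway, showed the clearest difference. *Odc1* stood at 566, 464, 626 and 994 CPM (scaled by TMM, a factor that evens out library composition) in control replicates 1 to 4, and at 194, 169, 138 and 143 CPM in NOX4-deficient replicates 1 to 4. Every NOX4-deficient library lay below the lowest control library, and control replicate 4 was the highest of all 8. The mean of 4 mice fell 4.12-fold, from 663 ± 231 CPM (SD) in control to 161 ± 25.9 CPM (SD) with NOX4 deficiency. The log2 fold change was -2.04 (SE 0.22, 95% interval -2.52 to -1.57, edgeR adjusted p = 4.52e-04 over 12725 rows), and the exact permutation p of the CPM values was 0.0286 (two-sided), the smallest that this number of mice allows. By size the change exceeded 99.8% of the rows tested, and by p-value *Odc1* ranked 25 among all rows and 12 among those that were lower. Without control replicate 4 the log2 fold change was -1.78 (edgeR adjusted p = 1.10e-04), and it was -1.87 from replicates 1 and 3 alone and -2.13 from replicates 2 and 4 alone.

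Calls required an adjusted p under 0.05 together with a log2 fold change beyond 0.5 in size, which 6.16% of all rows met, 3.48% lower and 2.68% higher. Of the 9 genes 1 was called lower and none higher by edgeR, and DESeq2 and pydeseq2 gave the same counts. An unadjusted edgeR p under 0.05 was found for 4 of the 9. Such values were common over all rows, where *Mbp* at an unadjusted edgeR p of 0.0497 ranked 2944 of 12725. An adjusted p under 0.05 at any fold, met by 7.75% of rows, was found for *Odc1* and *Oaz2*. The groups did not overlap for 3 of the 9, *Odc1*, *Amd1* and *Oaz2*, against 16.2% of all rows. The median log2 fold change was -0.06 over the 9 genes and 0.01 over all rows, with 5 genes lower and 4 higher, so the 9 did not move in a common direction.

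**Figure D1:**
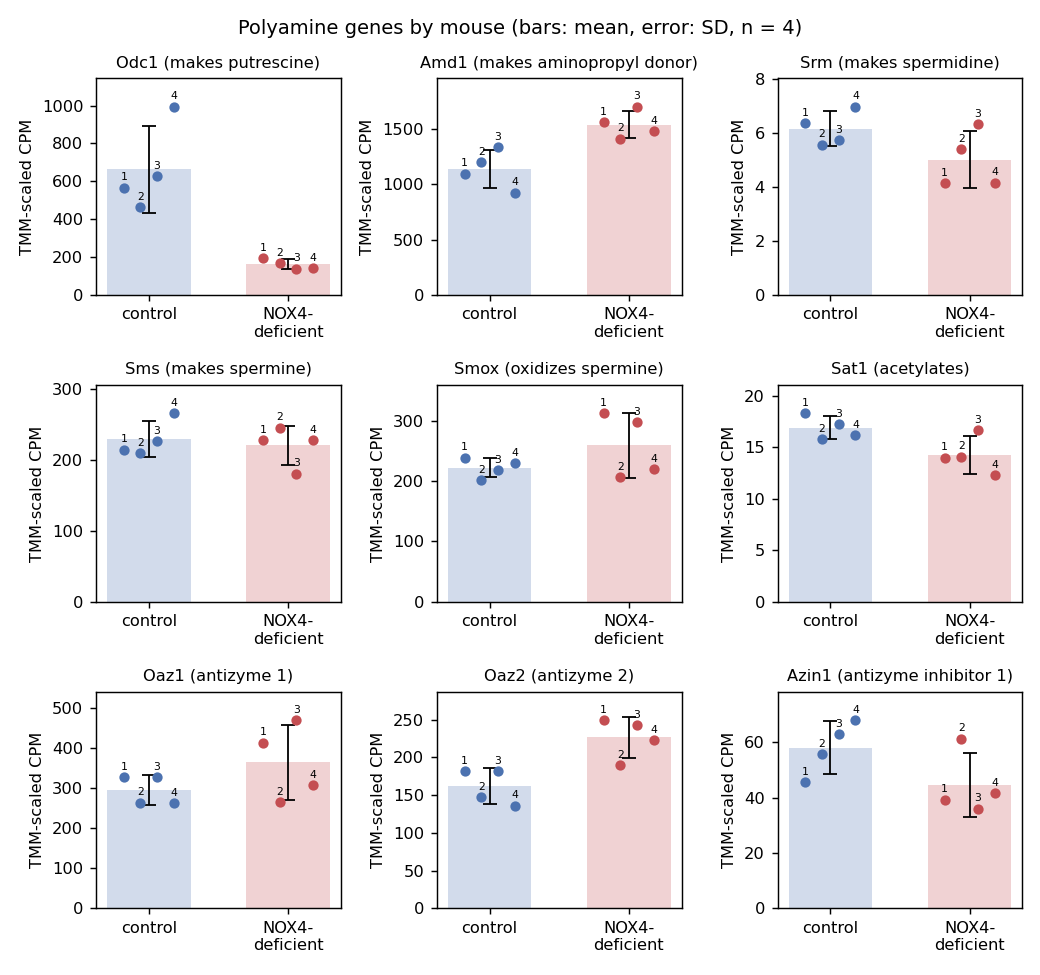
TMM-scaled CPM (vertical axes, each from 0) of the 9 genes in control and NOX4-deficient muscle, with 1 point per mouse numbered by replicate, bars at the mean and error bars of 1 SD (n = 4). *Odc1* lies between 464 and 994 in control and between 138 and 194 in NOX4-deficient muscle, while *Sms* has groups that overlap widely.

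The summed levels of 3 marker lists did not overlap between genotypes, as for *Odc1*. The clock and fasting-responsive list held 21 genes under 22 names (*Arntl* is also *Bmal1*). All 21 were tested, with 10 called lower and 2 higher. Their summed level was 5017 to 7329 CPM in control and 2055 to 2956 CPM in NOX4-deficient libraries, highest in control replicate 4 as for *Odc1*. Of the 10 denervation and neuromuscular junction genes 9 were tested, 4 lower and 5 higher (median log2 fold change 0.04), and only *Myh3* was called, higher. The sums of this list were 107 to 188 CPM against 81.6 to 104 CPM. Of 6 blood genes 3 were tested and *Hba-a1* and *Hbb-bs* were called higher, with sums of 47.6 to 52.7 CPM in control and 72.4 to 159 CPM in NOX4-deficient libraries. Among the lists whose sums overlapped, 9 of 10 tested macrophage and leukocyte genes had a negative log2 fold change (median -0.58, sums 36.2 to 94.5 CPM in control and 22.3 to 50.6 CPM in NOX4-deficient libraries). All 8 slow-fiber genes (median 0.64, 332 to 725 against 428 to 1279 CPM) and all 6 Schwann cell and nerve genes (median 0.39, 74.9 to 102 against 76.7 to 183 CPM) had positive values. Of the fibroblast and tendon genes 8 of 10 tested were higher (median 0.53, 432 to 736 against 445 to 726 CPM). For adipocyte genes 5 of 7 were higher (median 0.32), and for fast-fiber genes 8 of 9 (median 0.14). The endothelial, satellite cell and smooth muscle lists each had a median of 0.05. None of the genes in the marker lists whose sums overlapped was called. The part of these lists in the *Odc1* difference was not tested.

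The antizymes, which bind ODC1 and mark it for breakdown, had higher mean levels in NOX4-deficient muscle. *Oaz2* had 182, 147, 182 and 136 CPM in control replicates 1 to 4 and 249, 190, 243 and 223 CPM in NOX4-deficient replicates 1 to 4. The groups did not overlap, although the lowest NOX4-deficient library was close to the highest control libraries. Mean levels of 162 ± 23.6 and 226 ± 26.8 CPM (SD over 4 mice each) gave a log2 fold change of 0.49 (SE 0.13, 95% interval 0.21 to 0.76, edgeR adjusted p = 0.0361), just short of the minimum fold. Replicates 1 and 3 alone gave 0.44, and replicates 2 and 4 alone gave 0.54. When 1 library was left out, the adjusted p of *Oaz2* was under 0.05 in 3 of 8 fits and reached 0.105.

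*Oaz1*, the more abundant antizyme, had 328, 264, 328 and 262 CPM in control replicates 1 to 4 and 414, 266, 469.7 and 308 CPM in NOX4-deficient replicates 1 to 4. Within both genotypes replicates 1 and 3 were higher than replicates 2 and 4, and the genotypes overlapped. Its log2 fold change was 0.30 (SE 0.17, 95% interval -0.06 to 0.67, edgeR adjusted p = 0.31), with 0.43 from replicates 1 and 3 and 0.12 from replicates 2 and 4. With a term for odd or even numbers the adjusted p of edgeR was 0.0757 for *Oaz1* and 0.00327 for *Oaz2*. Over all rows PC2 (a principal component with 19% of the variance) showed the same split, where replicates 1 and 3 lay at 21 and 4.21 in control and 18.5 and 17.01 in NOX4-deficient mice, and replicates 2 and 4 at -5.92 and -3.55 and at -26.27 and -24.98. The labels give 1 batch for all samples and do not say what sets these replicates apart. A microRNA gene, *Mir1982*, overlaps *Oaz1* by 74 bases on the same strand and is not in the count table.

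*Azin1*, which frees ODC1 from antizyme, had 45.6, 55.9, 63.0 and 68.0 CPM in control and 39.3, 61.4, 36.1 and 41.7 CPM in NOX4-deficient replicates 1 to 4. NOX4-deficient replicate 2 lay inside the control range, and the other 3 lay below it. The log2 fold change was -0.38 (SE 0.17, 95% interval -0.75 to -0.01, edgeR adjusted p = 0.207, exact permutation p = 0.114). Without NOX4-deficient replicate 2 it was -0.58 and called (edgeR adjusted p = 0.0321), so that 1 library decides this value. *Gm49077* overlaps *Azin1* by 358 bases on the opposite strand and had at most 4 counts in a library.

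*Amd1*, which makes the aminopropyl donor, was the most abundant transcript of the 9. It had 1096, 1199, 1338 and 925 CPM in control replicates 1 to 4 and 1562, 1414, 1703 and 1480 CPM in NOX4-deficient replicates 1 to 4. All NOX4-deficient libraries lay above all control libraries, and control replicate 4, the highest for *Odc1*, was the lowest for *Amd1*. Over 4 mice each the means were 1139.6 ± 174 and 1539.5 ± 124 CPM (SD), a log2 fold change of 0.43 (SE 0.13, 95% interval 0.16 to 0.71, edgeR adjusted p = 0.0547, exact permutation p = 0.0286). The adjusted p was 0.0116 with DESeq2 and 0.0133 with pydeseq2, and over 20 alternatives it ran from 0.0116 to 0.133. It was under 0.05 in 8 of them, and in 1, without control replicate 3, the fold also passed the minimum (0.53, edgeR adjusted p = 0.0411).
*Amd2*, a near-identical copy of *Amd1*, had counts of 0.46% to 1.04% of those of *Amd1*, and reads that fit both copies could have been counted for either. The log2 fold change of *Amd2* was 0.29 (SE 0.20, edgeR adjusted p = 0.41).

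**Figure D2:**
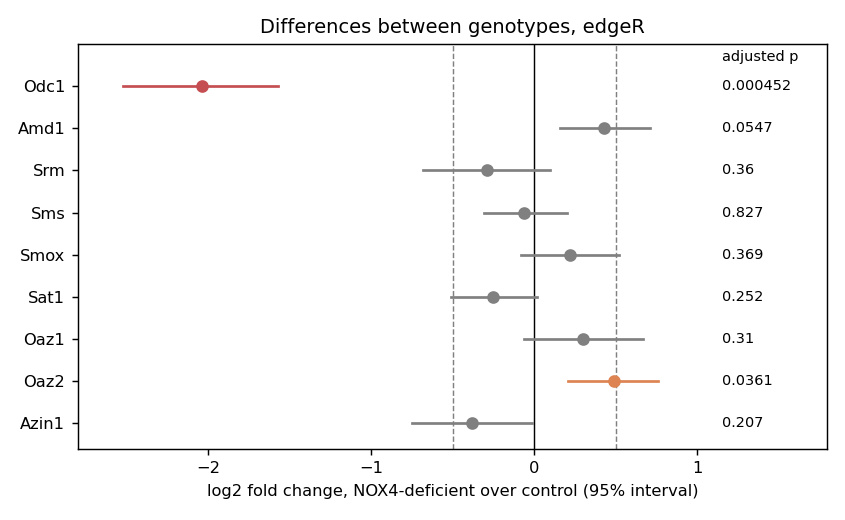
Log2 fold change of each gene, NOX4-deficient over control (horizontal axis), with its 95% interval from edgeR and the adjusted p at the right. The interval of *Odc1* lies wholly beyond the dashed line at -0.5, those of *Amd1* and *Oaz2* lie above 0 and cross 0.5, that of *Azin1* ends at -0.01, and the other 5 include 0.

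The synthases were found at very different levels and neither passed the test of genotype. *Srm*, for spermidine synthase, had 6.35, 5.56, 5.73 and 6.97 CPM in control and 4.15, 5.41, 6.31 and 4.16 CPM in NOX4-deficient replicates 1 to 4. Of the NOX4-deficient libraries 3 lay below all controls and the fourth within their range. The log2 fold change was -0.29 (SE 0.18, 95% interval -0.68 to 0.10, edgeR adjusted p = 0.36). *Sms*, for spermine synthase, had 215, 210.4, 227 and 266 CPM in control and 228, 246, 181 and 228 CPM in NOX4-deficient replicates 1 to 4. The genotypes overlapped for *Sms*, with a log2 fold change of -0.06 (SE 0.12, edgeR adjusted p = 0.827) and a 95% interval from -0.31 to 0.20. Its sign turned to 0.02 without control replicate 4 and to 0.04 without NOX4-deficient replicate 3.

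The enzymes of breakdown and interconversion did not pass the test either. *Smox*, for spermine oxidase, had 239.6, 202, 219 and 231 CPM in control and 313, 207, 299 and 221 CPM in NOX4-deficient replicates 1 to 4. NOX4-deficient replicates 1 and 3 lay above every control library, and replicates 2 and 4 lay among the controls. The log2 fold change was 0.42 from replicates 1 and 3, -0.02 from replicates 2 and 4, and 0.22 over all (SE 0.14, 95% interval -0.08 to 0.52, edgeR adjusted p = 0.369). *Sat1*, for the acetyltransferase that is rate-limiting in breakdown, had 18.3, 15.8, 17.3 and 16.2 CPM in control and 14.0, 14.1, 16.7 and 12.3 CPM in NOX4-deficient replicates 1 to 4. Here 3 of 4 NOX4-deficient libraries lay below all controls (log2 fold change -0.25, SE 0.12, 95% interval -0.51 to 0.02, edgeR adjusted p = 0.252, exact permutation p = 0.0857).

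**Figure D3:**
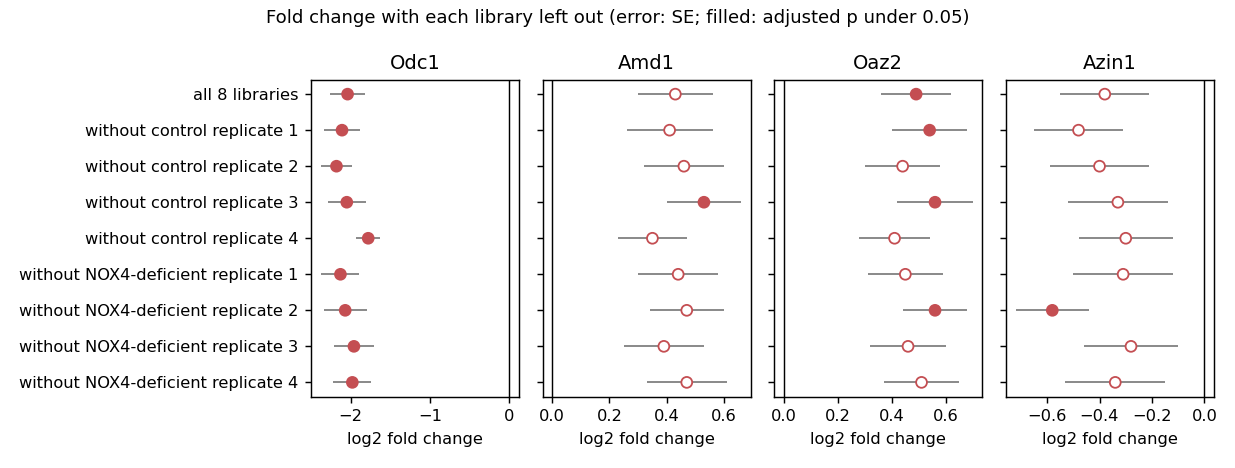
Log2 fold change (horizontal axes) of *Odc1*, *Amd1*, *Oaz2* and *Azin1* with all 8 libraries and with each library left out, with error bars of 1 SE and filled points where the edgeR adjusted p is under 0.05. *Odc1* is filled in every row, between -2.18 and -1.78, whereas *Amd1* and *Azin1* are each filled in 1 row.

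Levels were compared between genes after division by the length of each gene's exons, from 1.6 kb for *Srm* to 6.26 kb for *Azin1*. In control muscle the order of CPM per kb was *Amd1* (322 ± 49.1), *Odc1* (195 ± 67.8), *Oaz1* (115 ± 14.7), *Smox* (57.2 ± 4.19), *Oaz2* (54.1 ± 7.91), *Sms* (38.2 ± 4.17), *Azin1* (9.29 ± 1.55), *Sat1* (6.10 ± 0.398) and *Srm* (3.85 ± 0.402; SD, n = 4 each). The libraries of neighbours in that order did not overlap except for *Amd1* with *Odc1* and *Smox* with *Oaz2*. In NOX4-deficient muscle *Amd1* (435 ± 35.1) and *Oaz1* (142 ± 36.6) led, *Oaz2* (75.7 ± 8.95) and *Smox* (66.8 ± 13.9) followed with libraries that overlapped, and *Odc1* (47.2 ± 7.6) took the fifth place with libraries that overlapped those of *Smox* above it and *Sms* (36.8 ± 4.66) below it. *Srm* was the lowest in both genotypes.

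**Figure D4:**
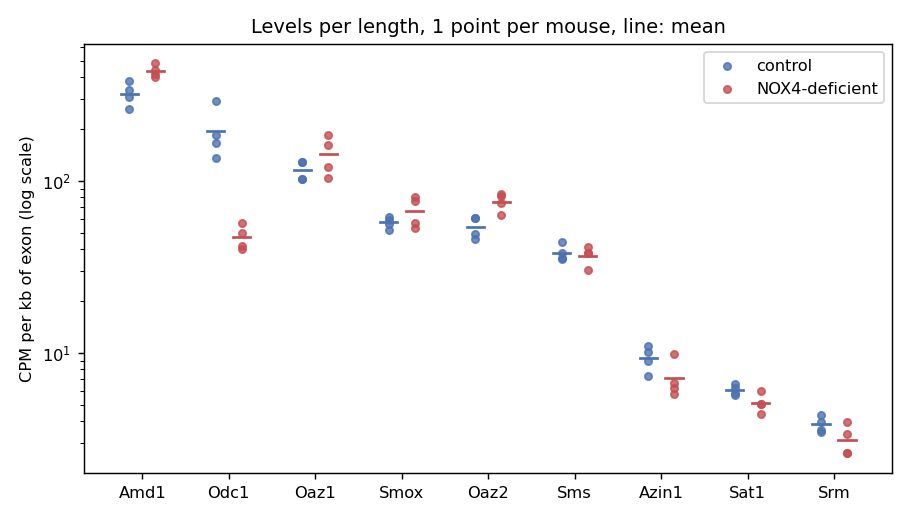
CPM per kb of exon on a log scale (vertical axis) for the 9 genes, with 1 point per mouse and a line at the mean of each genotype. *Odc1* moves from the second place in control (195) to the fifth in NOX4-deficient muscle (47.2), and *Srm* is lowest in both (3.85 and 3.13).

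Ratios within each library do not depend on how libraries are scaled. The ratio of *Odc1* to *Amd1*, per kb of exon, was 0.537, 0.403, 0.487 and 1.12 in control replicates 1 to 4 and 0.129, 0.124, 0.0841 and 0.10 in NOX4-deficient replicates 1 to 4. Every NOX4-deficient library had less *Odc1* for its *Amd1* than any control library, which follows from the levels of each gene given above. The ratio of *Odc1* to the sum of *Oaz1* and *Oaz2*, per kb, was 0.88, 0.896, 0.972 and 1.97 in control and 0.232, 0.296, 0.153 and 0.215 in NOX4-deficient replicates 1 to 4. In control muscle, then, *Odc1* transcript was near to or above the antizyme transcripts, and in NOX4-deficient muscle it was at most 0.296 of them in each mouse. The ratio of *Azin1* to the same sum was 0.056 ± 0.0144 in control and 0.035 ± 0.0166 with NOX4 deficiency (SD over 4 mice each), and the groups overlapped. *Odc1* had the largest fold change of the genes in these ratios.

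Among all rows tested, the 3 whose standardized log2 CPM profile over the 8 libraries lay nearest to that of *Odc1* were *Utp11*, a factor of ribosomal RNA processing, *Ipo13*, a nuclear transport receptor, and *Spart*, the gene of spartin. Their distances were 0.301, 0.389 and 0.399, where 5.66 is the largest possible. In control and then NOX4-deficient mice, *Utp11* had 49.3 ± 9.96 and 22.4 ± 3.08 CPM, *Ipo13* 348 ± 39.3 and 229.6 ± 6.68 CPM, and *Spart* 52.5 ± 4.56 and 39.2 ± 0.859 CPM (SD over 4 mice each). These genes were picked for their likeness to *Odc1*, and their differences are a description.

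Genes around the pathway were taken from 6 lists of 66 genes, of which 48 were tested and the other 18 had at most 15 counts in any library. Among the 48, 2 were called lower and 1 higher, which is 6.25% against 6.16% of all rows, a share near the background. *Mat2a*, the synthase of the S-adenosylmethionine that AMD1 consumes, rose from 132 ± 16.6 CPM (116 to 154) to 189 ± 15.4 CPM (169.7 to 206; SD, n = 4 each), a log2 fold change of 0.52 (SE 0.11, edgeR adjusted p = 0.0165). *Ahcy*, which clears S-adenosylhomocysteine after methyl transfer, fell from 44.5 ± 11.4 to 28.5 ± 3.29 CPM (SD, n = 4 each), with control replicate 4 far above the other controls (log2 fold change -0.64, SE 0.16, edgeR adjusted p = 0.0308). Without control replicate 4 the log2 fold change of *Ahcy* was -0.44 (edgeR adjusted p = 0.056), and the call was lost in 5 of 8 fits with 1 library left out. The call of *Mat2a* was lost in 3 of the 8, without control replicate 1 (0.49, adjusted p = 0.0501), without control replicate 3 (0.48) and without NOX4-deficient replicate 2 (0.47).

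The methionine cycle and methylthioadenosine salvage list, to which both belong, had 15 genes tested, 6 lower and 9 higher (median log2 fold change 0.03). The salvage enzymes, which recycle the by-product of the synthases, differed little, among them *Mtap* (0.12, edgeR adjusted p = 0.635) and *Adi1* (0.12, edgeR adjusted p = 0.487). In the list of arginine and ornithine supply 8 genes were tested, 3 lower and 5 higher, and none passed (median 0.05). *Oat*, which links ornithine to glutamate, had 278 ± 15.4 and 238 ± 16.1 CPM with groups that did not overlap (log2 fold change -0.22, SE 0.09, edgeR adjusted p = 0.176). The arginases *Arg1* and *Arg2* and the gene *Otc* were among those with too few counts to test.

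Of the other polyamine enzymes and regulators 4 were tested, 1 lower and 3 higher, and none passed (median 0.08). *Paox*, the oxidase of acetylated polyamines, had a log2 fold change of -0.11 (SE 0.17, edgeR adjusted p = 0.732), and *Azin2*, the second antizyme inhibitor, 0.04 (SE 0.23, edgeR adjusted p = 0.94). The hypusination list, which turns spermidine into the hypusine of EIF5A, had 4 genes tested, all with small positive values and none past the threshold (median 0.14). *Eif5a* had 365 ± 27.7 and 371 ± 62.7 CPM (SD, n = 4 each; log2 fold change 0.03, SE 0.13, edgeR adjusted p = 0.934).

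Polyamine transport had 8 genes tested, 4 lower and 4 higher, none called, with a median of 0.00. *Atp13a2*, a lysosomal polyamine exporter, had 15.1 ± 2.09 CPM (12.4 to 17.3) in control mice, against 21.3 ± 1.87 CPM (19.5 to 23.9) with NOX4 deficiency (SD over 4 mice each). Its adjusted p was under 0.05 and its fold below the minimum (log2 fold change 0.49, SE 0.13, edgeR adjusted p = 0.0349). With 1 library left out the adjusted p ran from 0.0388 to 0.0923.

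Of the regulators known to act on these genes 9 were tested, 5 lower and 4 higher, with 1 called lower and a median of -0.20. *Nfe2l2*, the transcription factor of the antioxidant response, fell from 69.5 to 71.4 CPM in control to 33.5 to 52.7 CPM in NOX4-deficient libraries (log2 fold change -0.65, SE 0.13, edgeR adjusted p = 0.0112), and was called with each library left out. *Myc*, which activates *Odc1* in many cells, had 5.71 ± 1.49 and 4.90 ± 1.24 CPM (SD, n = 4 each; log2 fold change -0.22, SE 0.23, edgeR adjusted p = 0.621). *Ppargc1a* had a log2 fold change of -1.39 but a wide spread in control (99.5 ± 53.3 against 37.9 ± 15.8 CPM; SD, n = 4 each; SE 0.42, edgeR adjusted p = 0.0855).

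**Figure D5:**
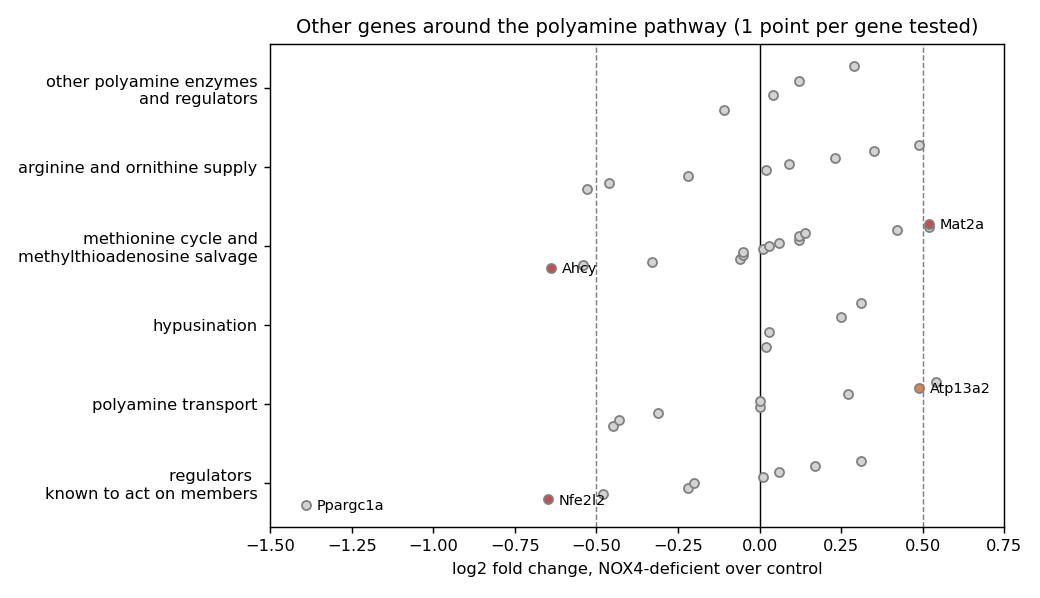
Log2 fold change (horizontal axis) of the 48 tested genes of the 6 lists, 1 point per gene, with dashed lines at the minimum fold of 0.5 in size. Red points (*Mat2a*, *Ahcy*, *Nfe2l2*) passed both thresholds, the orange point (*Atp13a2*) the adjusted p alone, and grey points, including *Ppargc1a* at -1.39, did not pass.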

How the data were processed

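RNA from gastrocnemius of 8 mice was sequenced as poly(A), unstranded, paired-end libraries. Reads went through the nf-core RNA-seq pipeline, and the submitters' processing notes name STAR and GRCm39. The annotation is not given in the sources used here. The authors deposited raw read counts per gene, without normalization. All 8 columns matched a sample by name.

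Counts were tested in R 4.3.3 with edgeR 4.0.16 (TMM, filterByExpr, robust glmQLFit, glmQLFTest), with genotype as the only term. P-values were adjusted by Benjamini-Hochberg over 12725 rows. The common biological coefficient of variation was 0.174. Calls used an adjusted p under 0.05 and a log2 fold change beyond 0.5 in size. Single CPM values were compared by exact two-sided permutation over all 70 assignments. Alternatives included DESeq2 1.42.0 and pydeseq2 0.5.4. Exon lengths came from GENCODE M21. The 95% intervals are those of the log2 fold change between genotypes, from the edgeR fit to these 8 samples.

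The 9 genes, the 6 pathway lists and the 12 marker lists were chosen with earlier results of these data known. Named genes were all 9, *Nox4*, the called genes of each pathway list, and the 3 nearest profiles to *Odc1*. Other genes of the pathway lists were named for their role, some after their values were seen. Of 32390 rows, 412 repeat an earlier name, none of them among the 9.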

Additional observations from a re-analysis of the deposited data

Results flagged for a closer look

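In 36 groups of 4 libraries (the 9 genes, the 3 called genes and the 6 summed lists of the pathway, in each genotype), the gap of the highest or lowest library to its nearest neighbour was divided by the range of the group and compared with Dixon's 95% critical value. It was exceeded in 2 groups, where chance gives about 1.8 (1 in 20). Control replicate 4 was far above the other controls for *Ahcy* (ratio 0.914), and the call of *Ahcy* was lost without it. Control replicate 1 was far below the other controls in the summed CPM of the other polyamine enzymes and regulators (ratio 0.903). None of the 9 genes exceeded the value in either genotype.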

How the results depend on the processing

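*Odc1* was called lower under all 20 alternatives, with a log2 fold change from -2.18 to -1.78 and an adjusted p of at most 0.00459. The direction of 8 of the 9 genes was kept under all 20. *Sms*, which ran from -0.11 to 0.04 with 1 library left out, turned to 0.02 without control replicate 4 and to 0.04 without NOX4-deficient replicate 3. The count called higher among the 9 was 1 with at least 10 counts in every sample and 1 with no minimum fold, both from *Oaz2*, against 0. With 1 library left out it ran from 0 to 2, and the count called lower from 1 to 2. *Oaz2* had an adjusted p under 0.05 in 15 of the 20 alternatives, and was called in 4 that kept the minimum fold and in the 1 without it.

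Over all rows, 784 calls became 252 at an adjusted p under 0.01 and 499 to 712 with 1 library left out, fewest without control replicate 4. They rose to 962 with the odd or even term, 986 with no minimum fold, 999 with DESeq2 and 1009 with pydeseq2. Pathway genes called higher numbered 2 with library size only, with at least 10 counts in every sample, with the replicate block, with the odd or even term and with no minimum fold, against 1, and 0 at an adjusted p under 0.01. Those called lower numbered 4 with DESeq2 and 4 with pydeseq2, against 2, and 0 at an adjusted p under 0.01. With 1 library left out they ran from 0 to 1 and from 1 to 3. Beyond the stricter thresholds and smaller samples, the cause of these shifts was not tested.

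Replicates that share a number correlated by 0.041 to 0.223 in their deviations, over 0.1 in 2 of 4 pairs, so the numbers were not taken to pair the mice. With the number as a replicate block 933 rows were called, and 1 of the 9 genes lower and 0 higher. Differences smaller than the intervals given, as for *Srm* at 69 to 134 counts, were not detectable at this depth and number of mice.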
